A study of Mus musculus with 10 samples.

Results

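The chemokine and chemokine receptor genes were the 62 genes of the deposited table whose symbols follow the Ccl, Ccr, Ccrl2, Cxcl, Cxcr, Cx3cl1, Cx3cr1, Xcl1, Xcr1 or Ackr naming pattern, out of 56748 genes in all. They comprised 39 ligands and 23 receptors. Their reads were counted in liver RNA from 10 mouse libraries. The 5 control libraries carried the genotype ACSS2-flox (flox), and the 5 others carried ACSS2-HKO (HKO), described in the design as a liver cell specific loss of ACSS2, the enzyme that makes acetyl-CoA from acetate. Both groups ate a diet rich in fat and fructose (HFFD) over 4 months, so the diet is shared and no library from another diet was analysed here. The sources used here do not name the Cre line, the deleted exons, sex, age or batch. The labels do not say that each library is a separate animal, so p-values measure the spread between these libraries, which may in part be technical.

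Chemokines are small secreted or membrane-anchored proteins that bind heparan sulfate and attract leukocytes through G protein-coupled receptors. Their names count the residues between the first conserved cysteines (CC, CXC, CX3C, and C for the XCL form). Atypical receptors bind chemokines without G protein signalling and clear or transport them. In steatohepatitis the CCL2 and CCR2 axis is known for drawing blood monocytes into the liver, and the CXCR3 ligands, induced by interferon gamma, for drawing T cells.

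The starts of 4 of these genes are shown, of which 3 are CXC ligand genes of chromosome 5 and the last is the monocyte receptor gene. They are the 250 bases before the RefSeq start on GRCm38.p6. Cxcl9 lies at chr5:92328080-92328329 (minus strand), Cxcl10 at chr5:92348890-92349139 (minus strand), Cxcl1 at chr5:90890995-90891244 (plus strand) and Ccr2 at chr9:124101933-124102182 (plus strand). Capitals mark matches, on either strand, to the NF-kappaB consensus, to the interferon-type repeat (GAAA, any 2 bases, GAAA) or to the TATA box TATAAA.
Cxcl9: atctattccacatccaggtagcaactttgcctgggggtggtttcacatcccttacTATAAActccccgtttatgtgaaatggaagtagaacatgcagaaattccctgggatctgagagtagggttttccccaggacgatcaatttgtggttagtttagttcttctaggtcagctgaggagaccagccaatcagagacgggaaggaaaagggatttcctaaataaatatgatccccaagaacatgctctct
Cxcl10: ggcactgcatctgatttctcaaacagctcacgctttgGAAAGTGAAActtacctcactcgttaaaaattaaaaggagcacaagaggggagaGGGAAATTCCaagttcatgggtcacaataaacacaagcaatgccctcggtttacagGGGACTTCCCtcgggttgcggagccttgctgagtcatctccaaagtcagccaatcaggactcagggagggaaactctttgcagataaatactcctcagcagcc
Cxcl1: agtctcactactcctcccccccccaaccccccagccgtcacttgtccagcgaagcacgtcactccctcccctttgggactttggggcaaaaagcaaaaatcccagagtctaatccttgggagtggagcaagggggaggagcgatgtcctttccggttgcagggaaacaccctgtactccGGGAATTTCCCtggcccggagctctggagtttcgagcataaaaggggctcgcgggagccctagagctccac
Ccr2: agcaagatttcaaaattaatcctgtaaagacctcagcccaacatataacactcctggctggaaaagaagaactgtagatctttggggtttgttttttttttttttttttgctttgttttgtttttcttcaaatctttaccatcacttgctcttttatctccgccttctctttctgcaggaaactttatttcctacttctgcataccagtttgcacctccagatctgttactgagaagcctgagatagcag

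Cxcl10 held 2 NF-kappaB matches, 159 and 103 bases before the start, and the GAAA repeat 213 bases before it. Cxcl1 held 2 overlapping NF-kappaB matches, beginning 71 and 70 bases before the start. In the Cxcl9 window only TATAAA was found, 195 bases before the start, and in the Ccr2 window none of the motifs searched. RefSeq windows were matched for 47 of the 62 genes, 56 windows in all. An NF-kappaB match was present in 10 of them (17.9%), against 3.9% of all 32851 windows of that length. The genes were Ackr2, Ccl9, Ccl20, Ccr3, Ccr6, Ccrl2, Cxcl1, Cxcl2, Cxcl3 and Cxcl10. The GAAA repeat was present in 5.36% of the members' windows against 2.98% of all, the interferon gamma site TTCNNNGAA in 5.36% against 7.02%, GAGGAAGT (read by PU.1) in 1.79% against 2.44%, and TATAAA in 25% against 12.4%. These are letter matches, not measured binding.

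Total counts per library ran from 15413648 to 19275358. Levels are given as CPM, read counts scaled to a common library size after trimmed-mean (TMM) scaling between libraries. The targeted gene Acss2 was read in every HKO library, at 40.2 to 59.0 CPM against 56.5 to 128.8 in flox (log2 fold change -0.71 ± 0.21 SE, adjusted p = 0.0858 by the quasi-likelihood test of edgeR). The ranges overlapped, and with the deleted exons unknown, counts over the whole gene check the labels only in part. The liver label fits the 8 hepatocyte markers, which summed to 74242 to 133318 CPM and were lowest in flox replicate 5. That library also had the highest cholangiocyte marker sum (162.3 CPM, against 37.6 to 78.7 in the others). Most of that sum came from 1 gene, Spp1, with a flox mean of 62.6 CPM. Krt19, Krt7, Epcam and Sox9 had flox means of 0.899 to 5.22 CPM. Flox replicate 5 and HKO replicate 3 stood apart from their groups for several of the genes below, and results resting on them are given with and without them.

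Of the 62 genes, 25 had enough counts to be tested (16 ligands and 9 receptors), 20 had at least 10 counts over all libraries but did not pass the filter on low counts, 12 had 1 to 9 counts and 5 had none. The filter can pass a gene through the group where it is higher, so the 25 are not a neutral sample of the family. A gene was called when its edgeR adjusted p, over all 14068 tested genes, was under 0.05.

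The ligand gene Cxcl9 was lower in HKO livers. Over the family, 2 of 25 genes were called lower (8%), beside 3.07% of all tested genes, and 0 called higher, beside 0.917% of all tested genes. With 25 genes, 2 calls are a small number to read against that background. At an unadjusted p under 0.05 in edgeR, 7 were lower (28%) and 0 higher. Of all 14068 tested genes, 1518 were lower (10.8%) and 854 higher at that level. Of the 25, 19 had a negative log2 fold change (76%), against 49.0% of all tested genes. The median log2 fold change was -0.58, against 0.01 over all tested genes. It was -0.38 without flox replicate 5 and -0.74 without HKO replicate 3. In 3 genes (12%), Cxcl9 and Ccr2 among them, every HKO library lay below every flox library, as it did in 3.46% of all tested genes.

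**Figure D1:**
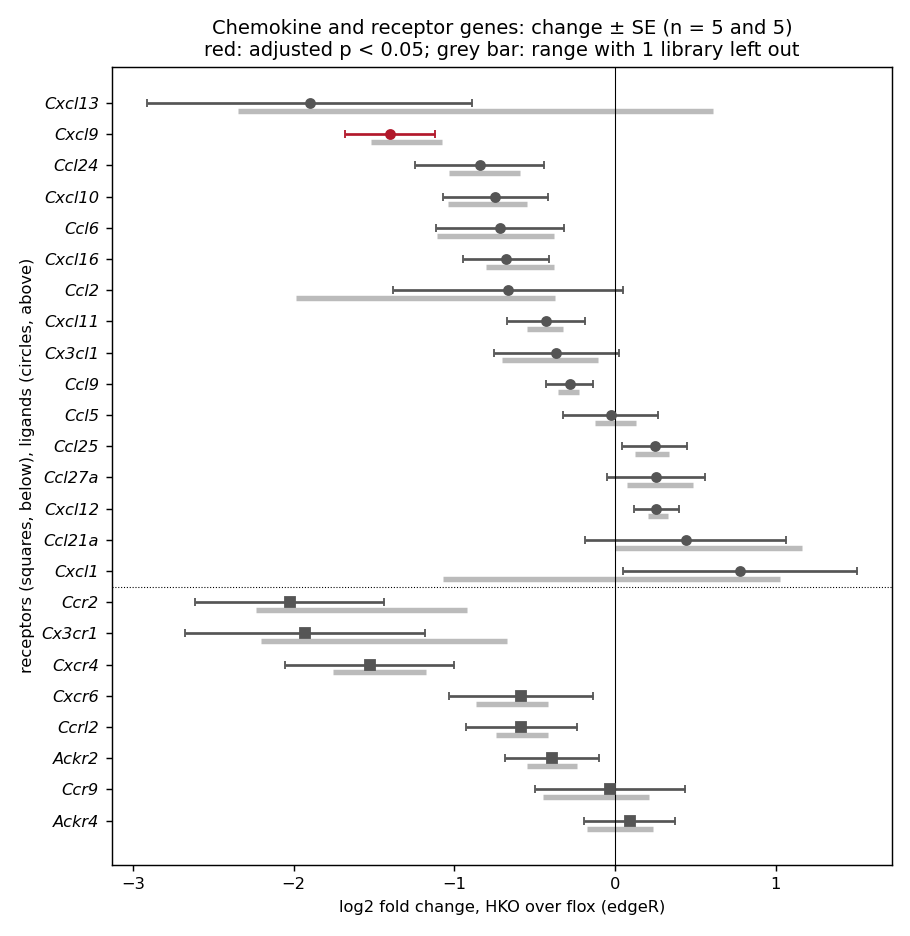
Log2 fold change of HKO over flox ± SE for 24 tested genes (circles ligands, squares receptors), with the range over fits that leave out 1 library as a grey bar. Cxcl9, in red, had an adjusted p under 0.05, and the grey bars of Cxcl1, Cxcl13, Ackr4, Ccl5 and Ccr9 cross zero.

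Ligands and receptors had 1 call each. The 16 ligands had a median log2 fold change of -0.40 (11 negative, 5 positive) and the 9 receptors of -0.58 (8 negative, 1 positive). Without flox replicate 5 the medians were -0.36 and -0.49, and without HKO replicate 3 they were -0.52 and -0.87. The difference between ligands and receptors was not tested. Per kilobase of gene length, the ligands were the more abundant transcripts, with a median of 2.01 CPM per kb over the 16 tested against 0.478 over the 9 tested receptors.

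**Figure D2:**
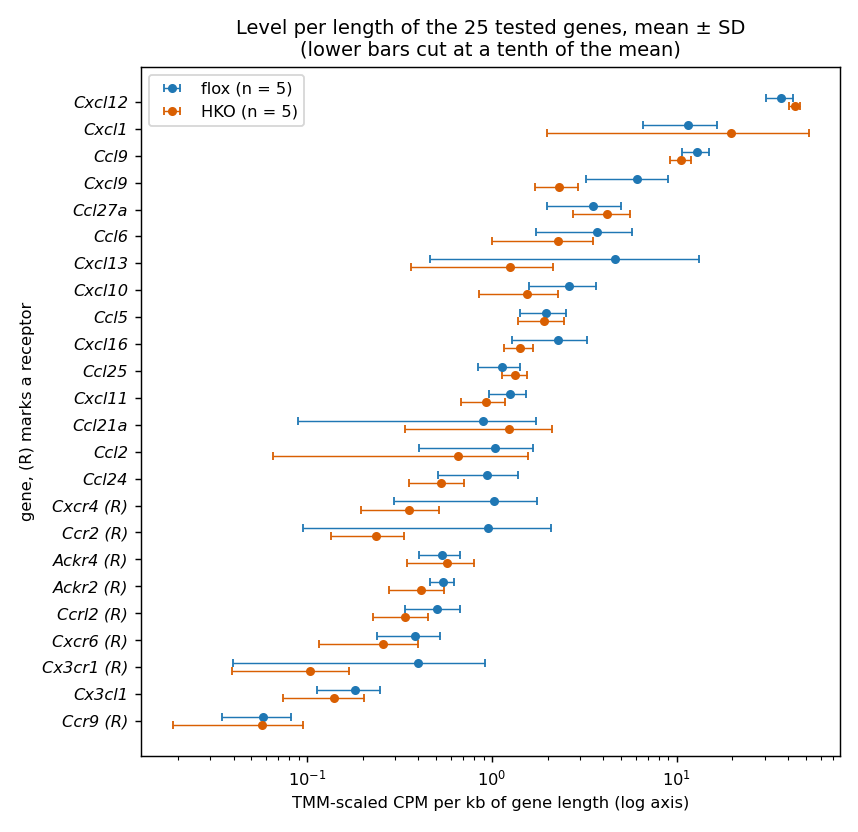
Mean level ± SD in CPM per kb of gene length, on a log axis, for 24 tested genes in flox and HKO (n = 5 each), ordered by the mean over all libraries, with lower error bars shortened where they would leave the log axis. Cxcl12 is highest at 40.1 CPM per kb over all libraries, and the most abundant receptor, Cxcr4, has 0.690 over all libraries.

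The CXCR3 ligands attract activated T cells and NK cells, and Cxcl9, Cxcl10 and Cxcl11 sit side by side on chromosome 5 (92469206 to 92513344 in the table's own coordinates). Cxcl9 (ENSMUSG00000029417) stood at 13.5, 19.5, 12.6, 13.5 and 33.0 CPM in flox replicates 1 to 5, and at 6.68, 5.61, 9.18, 8.48 and 4.96 CPM in HKO replicates 1 to 5. The groups did not overlap, and flox replicate 5 was the highest library. The log2 fold change was -1.40 ± 0.28 (SE), a 2.64-fold lower level in HKO (adjusted p = 0.0156 in edgeR). Without flox replicate 5 it was -1.08 (adjusted p = 0.0258 in edgeR). All 15 alternative fits called Cxcl9.

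Cxcl10 (ENSMUSG00000034855) stood at 7.77, 4.02, 8.85, 3.67 and 5.04 CPM in flox and at 3.89, 2.58, 6.15, 2.31 and 2.59 CPM in HKO. The groups overlapped through HKO replicate 3, the highest HKO library, and HKO replicate 1. Its log2 fold change of -0.75 ± 0.33 did not pass (unadjusted p = 0.0399, adjusted p = 0.264 in edgeR), nor did it without HKO replicate 3 (-1.04, adjusted p = 0.0838 in edgeR). Cxcl11 had 4.75 ± 1.07 CPM in flox and 3.52 ± 0.924 in HKO (SD, n = 5), a difference that missed the threshold (log2 fold change -0.43 ± 0.24, adjusted p = 0.409 in edgeR). The opposite-strand gene Art3 overlaps Cxcl10 and Cxcl11 and reached 17.0% and 19.2% of their counts. Of the 3 ligands, only Cxcl9 separated the groups by itself. Summed over the 3 ligands, the flox libraries held 22.6 to 41.4 CPM and the HKO libraries 11.6 to 18.0. Their receptor gene Cxcr3 was under the filter, with 63 counts in flox and 31 in HKO, and single libraries held 5 to 18. The T and NK cell markers, whose part in these values was not tested, had 0 of 4 tested genes called and summed levels of 3.92 to 6.65 CPM in flox and 4.18 to 7.07 in HKO. Ifng itself had 2 counts in all 10 libraries.

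**Figure D3:**
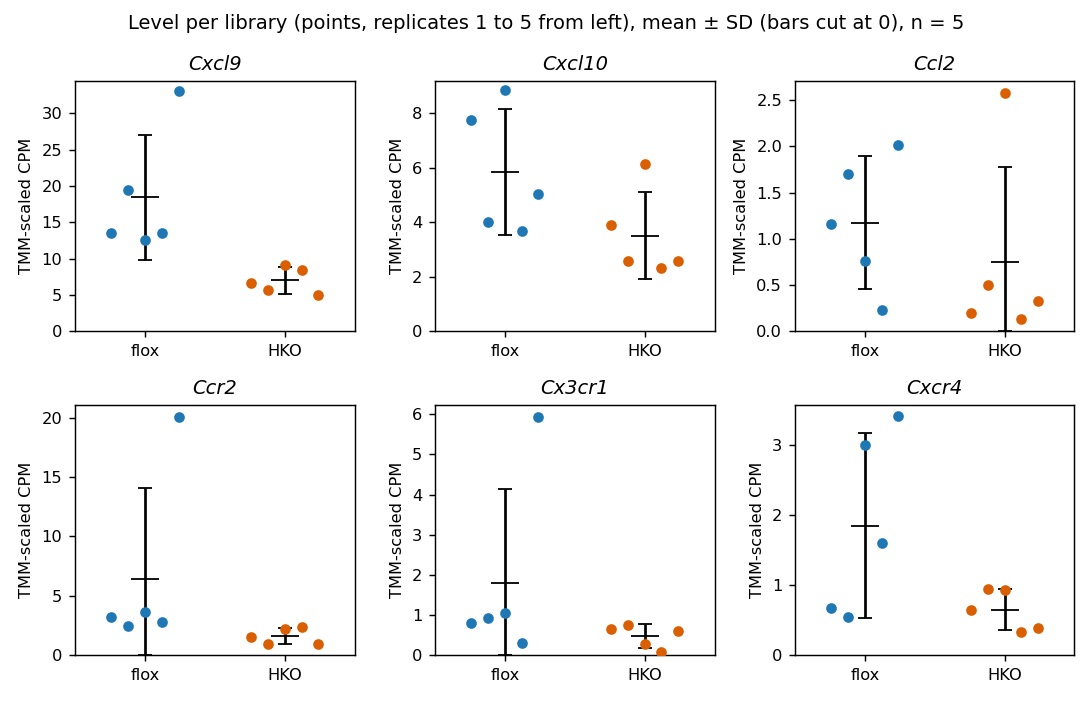
TMM-scaled CPM in each library (points, replicates 1 to 5 from left) with mean ± SD (bars cut at 0), for 3 ligand genes (upper row) and 3 receptor genes (lower row), each panel on its own axis starting at 0. Flox replicate 5 is the highest point for Cxcl9, Ccr2, Cx3cr1 and Cxcr4, and HKO replicate 3 the highest for Ccl2.

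Among the 4 tested receptors of inflammatory ligands, all log2 fold changes were negative, with a median of -1.60, and of -0.79 without flox replicate 5. Ccr2 (ENSMUSG00000049103), the receptor by which monocytes answer Ccl2, lies on chromosome 9. It stood at 3.18, 2.44, 3.60, 2.81 and 20.1 CPM in flox and at 1.49, 0.945, 2.18, 2.38 and 0.937 CPM in HKO. Flox replicate 5 was far above all others, and the remaining flox libraries lay between 2.44 and 3.60, narrowly above the HKO libraries. The difference of -2.03 ± 0.59 in log2 was not called (unadjusted p = 0.00418, adjusted p = 0.0781 in edgeR), and without flox replicate 5 it was -0.92 (adjusted p = 0.193 in edgeR). With no filter on low counts the gene was called (adjusted p = 0.00972 in edgeR), and DESeq2 gave it no adjusted p.

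Cx3cr1 (ENSMUSG00000052336), the receptor of the membrane-anchored Cx3cl1 on patrolling monocytes and some macrophages, had the same library on top. Flox replicates 1 to 5 stood at 0.795, 0.913, 1.04, 0.286 and 5.94 CPM, and HKO replicates at 0.648, 0.756, 0.264, 0.0643 and 0.606 CPM. The groups overlapped. The log2 fold change was -1.93 ± 0.75 (unadjusted p = 0.0219, adjusted p = 0.192 in edgeR), and -0.67 without flox replicate 5. The gene's span in the table overlaps Csrnp1, Gorasp1, Wdr48 and Xirp1, and the sources used here do not say how shared reads were assigned. Cxcr6, the Cxcl16 receptor of resident T and NKT cells, had a log2 fold change of -0.58 ± 0.45 (adjusted p = 0.566 in edgeR), and lies inside the far more abundant Fyco1.

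The sum over all 10 receptors of inflammatory ligands does not describe each gene, since Cx3cr1 and Cxcr6 overlapped between the groups. In that sum, flox replicate 5 held 46.3 CPM, the other flox libraries 11.4 to 13.9 and the HKO libraries 5.02 to 9.45. Macrophage transcripts moved the same way. All 14 macrophage and Kupffer cell markers tested were called lower, beside 3.07% of all tested genes, with a median log2 fold change of -1.69 (11 called without flox replicate 5), and their summed level was 346.9 to 850.0 CPM in flox and 130.3 to 272.4 in HKO. Of the 4 monocyte markers tested, 3 were called lower (2 without flox replicate 5), with summed levels of 15.9 to 35.2 CPM against 4.85 to 12.1. No marker of either list was without counts. The part of these cells in the receptor and ligand values was not tested, and in whole liver fewer cells of a type and less RNA per cell cannot be told apart.

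**Figure D4:**
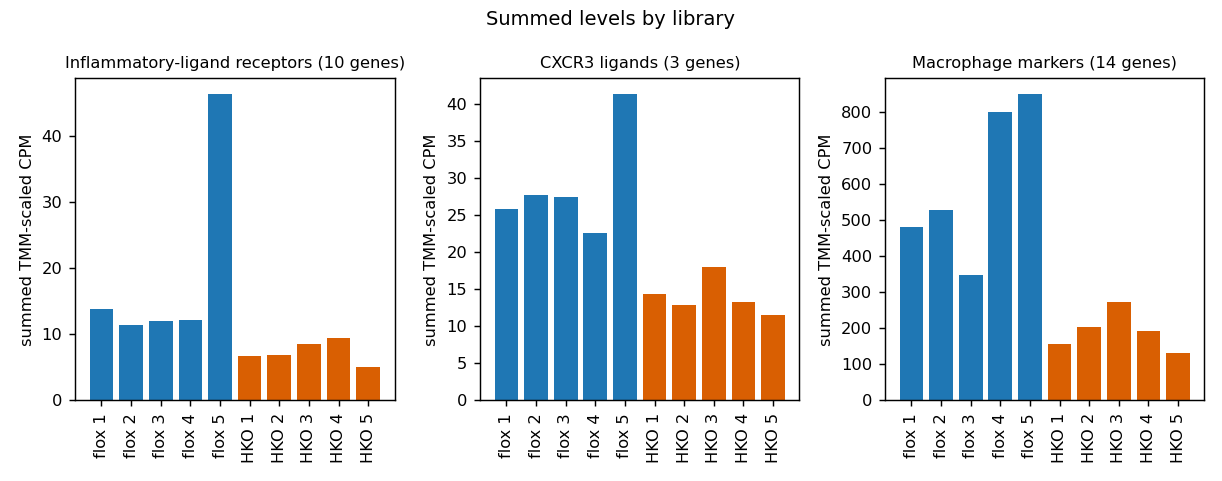
Summed TMM-scaled CPM in each library for the 10 receptors of inflammatory ligands, the 3 CXCR3 ligands and the 14 macrophage markers (bars from 0, flox blue, HKO orange). Every flox bar is above every HKO bar in all 3 panels, and flox replicate 5 is the highest at 46.3, 41.4 and 850.0 CPM. Single genes in the receptor and CXCR3 ligand sums overlapped between the groups, Cx3cr1, Cxcr6, Cxcl10 and Cxcl11 among them.

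The CCR2 ligands were scarce. Ccl2 (ENSMUSG00000035385), the main monocyte attractant, stood at 1.16, 1.71, 0.764, 0.229 and 2.01 CPM in flox and at 0.194, 0.504, 2.58, 0.129 and 0.331 CPM in HKO. The single highest library was HKO replicate 3, and the groups overlapped widely. The log2 fold change was -0.67 ± 0.72 (adjusted p = 0.704 in edgeR), and -1.99 without HKO replicate 3 (adjusted p = 0.0913 in edgeR). Ccl7 did not pass the filter. It had 2, 3, 6, 5 and 5 counts in flox replicates 1 to 5 and 0, 1, 0, 0 and 0 in HKO, so the groups did not overlap in counts. With no filter on low counts, 4 of 57 genes of the family were called lower (7.02%), beside 2.18% of all genes in that fit, and Ccl7 was among them (adjusted p = 0.0469 in edgeR) with Cxcl9 and Ccr2. Ccl12 had 4 counts in all.

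Among the other inflammatory CC ligands, all 4 tested genes had negative log2 fold changes and none passed. Ccl9, the most abundant of them per length (11.7 CPM per kb over all libraries), had 39.1 ± 6.44 CPM in flox and 32.1 ± 4.24 in HKO (adjusted p = 0.355 in edgeR). Ccl6, made by myeloid cells, had 6.67 ± 3.55 and 4.07 ± 2.27 CPM (adjusted p = 0.397 in edgeR), with HKO replicate 4 apart from its group at 7.97 CPM. The eotaxin gene Ccl24 had 1.22 ± 0.560 and 0.684 ± 0.226 CPM (adjusted p = 0.309 in edgeR). Ccl5, an attractant made by T and NK cells, had 1.88 ± 0.521 and 1.84 ± 0.523 CPM, a log2 fold change of -0.03 ± 0.30. The related genes Ccl3 and Ccl4 had 3 and 26 counts in all 10 libraries.

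The neutrophil attractant Cxcl1 (ENSMUSG00000029380) rested on 1 library. It stood at 31.4, 14.7, 29.6, 9.80 and 22.3 CPM in flox and at 11.7, 8.76, 144.1, 9.38 and 11.1 CPM in HKO. HKO replicate 3 was above all other libraries by several fold, while the other HKO libraries lay within or under the lower part of the flox range. In log2 the difference was 0.78 ± 0.73 (adjusted p = 0.655 in edgeR) with that library and -1.07 without it (adjusted p = 0.0630 in edgeR). Its neighbour Cxcl2 had 16 counts in flox and 13 in HKO, and Cxcl3, whose window holds the same NF-kappaB letters as that of Cxcl1, had none. The neutrophil markers had 0 of 3 tested genes called, a median log2 fold change of -1.18, and summed levels of 5.36 to 19.2 CPM in flox and 3.09 to 11.6 in HKO, highest within HKO in replicate 3. Their part in Cxcl1 was not tested. Cxcr2, the receptor of Cxcl1, had 68 counts in all, and the related receptor gene Cxcr1 had 22.

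Cxcl12, the homeostatic ligand that retains CXCR4-bearing cells in tissue, was the most abundant transcript of the family and gave 72.0% of all ligand counts. That share is not corrected for gene length, which is 8176 bases for Cxcl12. Per length it was also highest, at 40.1 CPM per kb over all libraries against 15.6 for the next, Cxcl1. It stood at 299 ± 49.4 CPM in flox and 357 ± 24.4 in HKO. The difference, 0.26 ± 0.14 in log2, was not called (adjusted p = 0.391 in edgeR). Its signalling receptor gene Cxcr4 stood at 0.673, 0.548, 3.0, 1.60 and 3.43 CPM in flox and at 0.648, 0.945, 0.925, 0.321 and 0.386 CPM in HKO. Flox replicates 3, 4 and 5 were above all HKO libraries, while flox replicates 1 and 2 were within them. In log2 the difference was -1.53 ± 0.53 (unadjusted p = 0.0119, adjusted p = 0.138 in edgeR), and -1.18 without flox replicate 5 (adjusted p = 0.342 in edgeR). The scavenger of Cxcl12, Ackr3, had 43 counts in flox and 37 in HKO.

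Of the 5 tested homeostatic ligands, 4 had positive log2 fold changes and none passed. Ccl25, the ligand of Ccr9, had 8.4 ± 2.16 and 9.96 ± 1.57 CPM, and Ccl27a 8.32 ± 3.58 and 9.92 ± 3.39. Ccl25 overlaps Elavl1 and Ccl27a overlaps Il11ra1 on the other strand, both with several times more counts, and it is not stated whether strand was used in counting. Ccl21a, the lymph node ligand of Ccr7, had a log2 fold change of 0.44 ± 0.62. It is nearly identical to Ccl21b and Ccl21d, both listed without a count, so these copies cannot be told apart. The B cell attractant Cxcl13 had 22.9 CPM in flox replicate 4 and 0.218 to 2.20 in the other flox libraries, against 0.331 to 2.96 in HKO. Its log2 fold change of -1.90 ± 1.01 (adjusted p = 0.373 in edgeR) became 0.61 without flox replicate 4. Receptors of this group were near the limit of detection, with Ccr7 at 67 counts, Ccr10 at 54 and Cxcr5 at 34. Ccr9 had a log2 fold change of -0.03 ± 0.46 and overlaps Lztfl1, a gene with far more counts.

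The membrane-anchored ligand Cxcl16, a scavenger receptor for oxidised lipoprotein as well, stood at 4.34, 5.12, 6.06, 6.82 and 11.9 CPM in flox and at 4.28, 3.53, 5.42, 3.66 and 4.52 CPM in HKO. The groups overlapped. Its log2 fold change was -0.68 ± 0.27 (unadjusted p = 0.0239, adjusted p = 0.202 in edgeR), and -0.38 without flox replicate 5. The opposite-strand gene Zmynd15 overlaps it and reached 97.3% of its count. Cx3cl1, the ligand of Cx3cr1, had 0.711 ± 0.266 CPM in flox and 0.547 ± 0.254 in HKO (adjusted p = 0.699 in edgeR).

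No atypical receptor passed. Ackr2, a scavenger of inflammatory CC chemokines, had 1.70 ± 0.256 and 1.29 ± 0.424 CPM in flox and HKO (log2 fold change -0.39 ± 0.29). Ackr4, a scavenger of Ccl19, Ccl21 and Ccl25, had 2.88 ± 0.720 and 3.07 ± 1.20 CPM and overlaps Acad11, a gene with far more counts. Its log2 fold change of 0.09 ± 0.28 turned to -0.17 without HKO replicate 3 and to -0.03 with library totals alone. Ccrl2, which binds chemerin, had a log2 fold change of -0.58 ± 0.35 (adjusted p = 0.436 in edgeR). Summed over all 5 atypical receptors, levels were 5.42 to 8.81 CPM in flox and 4.73 to 8.39 in HKO, so the groups overlapped.

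Of the 20 genes with at least 10 counts that were not tested, 16 had more raw counts in flox than in HKO, without scaling for library size. The share among all untested genes was not computed, so no trend of the family is read from this number. Cxcr2, for example, had 36 counts in flox and 32 in HKO, but mean scaled levels of 0.394 and 0.403 CPM. Ccr1, a receptor of Ccl3, Ccl5, Ccl6 and Ccl9, had 10, 7, 4, 0 and 35 counts in flox and 3, 2, 1, 7 and 8 in HKO, so most of its flox counts came from replicate 5. Xcr1, a marker of cross-presenting dendritic cells, had 48 and 23 counts, and its ligand gene Xcl1 17 and 11. Cxcl14 had 58 and 45, Ccl19 37 and 18, Ccl28 26 and 28, Cxcl17 15 and 5, Ccl22 12 and 5, Cxcl5 10 and 2, and Ackr1 44 and 46. These genes were not tested in the filtered fit, so no difference is read from these counts. The genes with 1 to 9 counts were Ccl3, Ccl8, Ccl11, Ccl12, Ccl17, Ccl26, Ccl27b, Cxcl15, Ccr3, Ccr4, Ccr6 and Ccr8. Ccl1, Ccl20, Ccl21b, Ccl21d and Cxcl3 had no count, and a count of 0 allows up to 3 counts, or 0.156 to 0.195 CPM by raw library total, without TMM scaling, in 1 library (counting error only).

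**Figure D5:**
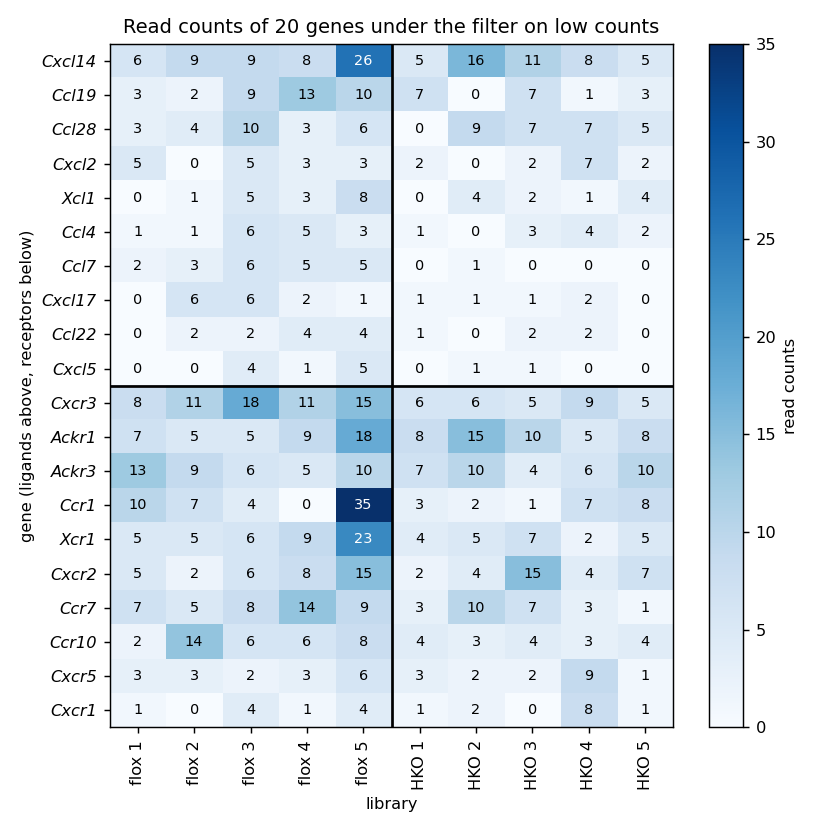
Read counts per library (columns) of the 20 genes with at least 10 counts that did not pass the filter, ligands above and receptors below. Ccl7 has 2 to 6 counts in each flox library and 0 or 1 in each HKO library, and Ccr1 has 35 in flox replicate 5.

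By position, 32 of the 62 genes lie in 7 clusters, defined as runs of at least 3 genes less than 250000 bases apart in the table. The notes name mm10, but only 4 of the 62 genes have the same start and end in the mm10 annotation used here. Cxcl9, on the minus strand, ends at 92475938 in the table, while its RefSeq window on GRCm38.p6 begins at 92328080. Its position is therefore not that of mm10, and the sources used here do not name another build. The chromosome 9 receptor cluster holds Ccr9, Cxcr6, Xcr1, Ccr1, Ccr3 and Ccr2. Of these, Ccr9, Cxcr6 and Ccr2 were tested, with log2 fold changes of -0.03, -0.58 and -2.03. The Ccr2 value was -0.92 without flox replicate 5. In the chromosome 11 CC cluster around Ccl5 (83416604 to 83555509), the 3 tested genes lay between -0.72 and -0.03. The CXCR3 ligands, 3 of 3 tested, lay between -1.40 and -0.43. Cxcl1, the only tested gene of the other chromosome 5 cluster, had 0.78 with all libraries and -1.07 without HKO replicate 3.

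Of 35 tested signal transducers that act downstream of chemokine receptors, 12 were called lower in HKO and 0 higher, beside 3.07% and 0.917% of all tested genes, with a median log2 fold change of -0.52 (6 called without flox replicate 5). Those called with the smallest p included the migration adaptor Elmo1 (3.19 ± 1.57 to 0.715 ± 0.264 CPM, adjusted p = 0.00978 in edgeR), the guanine exchange factor Vav1 (5.26 ± 2.61 to 1.52 ± 0.189 CPM) and the lipid kinase gene Pik3cd (9.18 ± 3.97 to 3.23 ± 1.19 CPM). Rac2, Was, Dock2 and Ncf1, which act in leukocyte movement or oxidant production, had log2 fold changes of -1.68, -1.90, -1.53 and -1.50, and Dock2 and Ncf1 were not called without flox replicate 5. The G protein gene Gnai2, through which chemokine receptors signal and which many cell types express, was chosen for mention after its values were seen. It had -0.52 ± 0.13 and was called, but not without flox replicate 5 (adjusted p = 0.0893 in edgeR). Of 23 tested genes that induce chemokines, 1 was called lower and 0 higher, beside the same 3.07% and 0.917%, so a single call is near the background. That gene was Spi1, which encodes the myeloid transcription factor PU.1 (log2 fold change -1.54 ± 0.37), and it was not called without flox replicate 5 (adjusted p = 0.0861 in edgeR). Tnf had 36 counts and Il6 6 in all 10 libraries. The macrophage values above moved with these transducers too, and their part was not tested.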

How the data were processed

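RNA-seq libraries of mouse liver total RNA used a VAHTS kit, per the labels' protocols. The authors deposited raw read counts per gene, as whole numbers. Names of mm10 and DESeq2 come from the submitters' processing notes. The aligner, counter, annotation, strand and handling of reads with several matches were not stated in the sources used here. The gene_length column deposited by the authors, in bases, was used for levels per kb.

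HKO was compared with flox by the quasi-likelihood F-test of edgeR 4.0.16 (R 4.3.3, TMM, filterByExpr by group, both directions) on all genes, with Benjamini-Hochberg adjustment over the 14068 tested. Standard errors were taken from the log2 fold change and its F statistic (absolute value divided by root F). The fit was first tested on simulated data with 200 changed genes. It recovered 46% of 2-fold and 94% of 4-fold changes, with 4 false among 144 calls. A gene that was not called may therefore still differ by about 2-fold. Alternatives were DESeq2 1.42.0, other scalings, no filter, a replicate block and leaving out each library.

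Tested genes of the family are named, untested ones by counts, and listed pathway genes by smallest p, except that some counted genes are not reported here. The members and lists were chosen with earlier results of these data known. Near-identical copies (at least 95% identity over at least 50% of a transcript, BLAST 2.17.0 on GENCODE M21) were found for 7 members, and 18 overlapped a gene with at least 10% of their counts. Libraries within a group differed beyond sampling noise (chi-square per degree of freedom of at least 24.6).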

Additional observations from a re-analysis of the deposited data

Results flagged for a closer look

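A set of libraries was flagged when a library's gap to its nearest neighbour, as a share of the set's range, exceeded Dixon's critical value. Chance exceeds it in about 1 in 20 sets of independent, normally distributed values. Low CPM need not follow that distribution and the sets share libraries, so no excess over 1 in 20 is read. Of 48 sets of 5 libraries (24 genes in 2 groups), 10 held a library far from the others by that measure. Flox replicate 5 was such a library for the receptor genes Ccr2 (20.1 CPM, next 3.60) and Cx3cr1 (5.94, next 1.04). HKO replicate 3 was one for Cxcl1 (144.1 CPM, next 11.7), Ccl2 (2.58, next 0.504) and Ackr4 (5.15, next 2.92). The others were Cxcl13 in flox replicate 4 (22.9 CPM, next 2.20), Ccl21a in flox replicate 3 (2.02, next 0.670), Ccl6 in HKO replicate 4 (7.97, next 3.83), Cx3cl1 in HKO replicate 5 (0.992, next 0.514) and Cxcr6 in flox replicate 2, which was low (0.244 CPM, next 0.819).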

How the results depend on the processing

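The count of family genes called lower was 2 in DESeq2, with DESeq2 size factors and with library totals alone, 4 with no filter on low counts (2 ligands and 2 receptors) and 1 with the replicate number as a block (0 receptors). With 1 library left out it was 1 to 2, with 1 ligand throughout and 0 to 1 receptors, and no family gene was called higher in any fit. Cxcl9 was called in all 15 alternatives, with adjusted p from 0.000137 to 0.0426. Over all genes, 561 were called, 1021 by DESeq2 and 289 to 673 with 1 library left out (335, 289 and 354 without HKO replicates 1, 4 and 5, and 361 without flox replicate 5). DESeq2 gave no adjusted p for Ccr2, Cxcl1 and Cxcl13.

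Signs turned for genes that were not called. Cxcl1 had a log2 fold change of -0.25 with the replicate block and -1.07 to 1.03 with 1 library left out. Ackr4 had -0.028 with library totals alone and -0.17 to 0.23 with 1 library left out, and those ranges were -0.13 to 0.13 for Ccl5, -0.45 to 0.21 for Ccr9 and -2.35 to 0.61 for Cxcl13. The cause was not tested. Replicate numbers did not pair the libraries by expression. The deviations of same-numbered libraries correlated between -0.121 and 0.24, and no flox library correlated best with the HKO library of its own number. The labels do not say whether same-numbered libraries were handled together, so what the block stands for is not known. Depth limits the 37 untested genes and those near 1 CPM.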

Other observations

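Among attractant genes outside the naming pattern, 3 of 11 tested were called lower in HKO and 0 higher, beside 3.07% and 0.917% of all tested genes, and all 3 encode receptors of other attractants. Fpr1, a receptor of formylated peptides, went from 4.75 ± 2.25 to 1.35 ± 0.553 CPM, a log2 difference of -1.82 ± 0.36 (adjusted p = 0.0148 in edgeR, and 0.0218 without flox replicate 5). Fpr2 went from 2.14 ± 1.14 to 0.663 ± 0.184 CPM, a log2 difference of -1.68 ± 0.39 (adjusted p = 0.0285 in edgeR). Cmklr1, a receptor of chemerin, went from 3.13 ± 1.65 to 1.24 ± 0.237 CPM, a log2 difference of -1.33 ± 0.33 (adjusted p = 0.0388 in edgeR), and was not called without flox replicate 5 (adjusted p = 0.0858 in edgeR). Markers of other cell types that could carry chemokine receptors were called in 0 of 3 tested genes for B and plasma cells, 0 of 3 for dendritic cells, 0 of 8 for stellate cells, 0 of 5 for cholangiocytes and 0 of 8 for hepatocytes, and in 1 of 8 for sinusoidal endothelial cells (Cdh5, log2 fold change -0.87 ± 0.20). The Cdh5 call was lost without flox replicate 5 (adjusted p = 0.0722 in edgeR). Median log2 fold changes of these lists were -0.36, 0.23, -0.17, -0.46 and 0.17 in the order given, and -0.44 for sinusoidal endothelial cells. With flox replicate 5 left out they were -0.18, 0.28, -0.007, 0.02 and 0.09, and -0.39 for sinusoidal endothelial cells.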
